A study of Mus musculus with 9 samples.

Results

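The 8 genes described here encode receptor chains of the common gamma chain cytokine family and 3 proteins that act directly behind them. They were taken by symbol from the 750 genes of the panel, and all 8 were measured. They are Il2ra, Il2rb, Il2rg, Il15ra and Il21r among the receptor chains, Jak3, the kinase bound to the common gamma chain, and Socs1 and Socs3, which encode suppressors of cytokine signaling. No measured value was used to choose them, although earlier results of these data were known when they were chosen.

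CD8+ OT-1 T cells were compared in 3 groups of 3 samples each. The OT-1 T cell receptor is a transgene that recognizes the SIINFEKL peptide of ovalbumin (OVA). All 3 groups carry it and were started from OT-1 splenocytes primed with that peptide and expanded in IL-2 at 50 IU per ml. For the last 24 h, the cells were kept together with tumor cells of the line CT2A-TRP2-β2mKO and with macrophages pulsed with OVA (the "macrophages and tumor" group), with the pulsed macrophages only, or alone. The macrophages were grown from Ly6Chi bone marrow monocytes. The tumor line, a mouse glioma, has no β2m and thus no MHC-I on its surface, and it holds no OVA, so that the OVA peptide came only from the macrophages. The ratio of T cells was 10 to 1 over tumor cells and 5 to 1 over macrophages by the labels, and the methods give other ratios. The methods describe the mice of the study as female. Whether the samples of a group came from separate mice is not given in the sources used here, so the p-values measure only the spread between these samples.

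For this family of genes the medium matters. The methods state IL-2 for the OT-1 cells cultured alone, and their wording does not settle whether the co-cultures had it during those 24 h, while the treatment protocol of the deposit names a medium without IL-2. The presence of other cells, the peptide and the supply of IL-2 therefore cannot be told apart in any comparison against OT-1 alone. The design text calls the T cells of that group naive, but the growth protocol describes peptide and IL-2 for all groups.

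Cytokines of this family (IL-2, IL-4, IL-7, IL-9, IL-15 and IL-21) share the common gamma chain, encoded by Il2rg, and each adds its own receptor chain or chains. The beta chain, encoded by Il2rb, serves both IL-2 and IL-15. The alpha chains CD25 (Il2ra) and IL-15Rα (Il15ra) raise the affinity for IL-2 and IL-15 but do not signal by themselves. JAK1 and JAK3, held by the beta or private chain and the gamma chain, phosphorylate STAT proteins, mainly STAT5 after IL-2 and STAT3 after IL-21. SOCS1 and SOCS3 are induced by such signals and restrain signaling through JAKs in turn, though not through each JAK alike. In CD8+ T cells, CD25 and SOCS1 are both known to rise with IL-2.

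RNA from sorted CD8+ cells was counted on an nCounter, which counts colored barcodes on probes bound to each transcript without amplification. Levels are given as the log2 normalized counts that the authors deposited. Raw counts, recovered from the steps between low values, totaled 697656 to 1186174 in 8 samples and 131957 in the library of macrophage sample 2. That sample was scaled up by 6.38, against 0.681 to 1.36 in the others, and 254 of its genes had under 20 raw counts, against 90 to 208 in the others. Cd8a lay between 12.42 and 12.54 with macrophages and tumor, between 12.10 and 12.46 with macrophages and between 11.53 and 11.64 in OT-1 alone. The median of 34 macrophage markers was 4.62 to 5.10 with macrophages and tumor, 4.42 to 6.58 with macrophages (4.63 at most without sample 2) and 4.09 to 4.46 in OT-1 alone. Of the 34, Ccl2 (2.65) and Ctss (0.54) were higher and C1qbp (-0.38) lower past the threshold with macrophages and tumor, and Tlr2 (0.99) was higher with macrophages, while the defining markers Csf1r, Cd14, Itgam and Cd68 passed in none of the comparisons. Compared with OT-1 alone and without overlap, 16 of the 34 were higher and 1 lower in the macrophages and tumor group, beside 43.5% and 13.6% of all genes. In the macrophage group 7 were higher and 1 lower, beside 38% and 15.1% of all genes. The summed level of these markers was 6832 to 6952 normalized counts with macrophages and tumor and 6887 to 7396 in OT-1 alone. It was 6433 to 9067 with macrophages (6433 to 6644 without sample 2). C1qbp weighed most in this sum, with means of 11.89 with macrophages and tumor, 12.03 with macrophages and 12.27 in OT-1 alone. As it was highest in OT-1 alone, which had no macrophages, the sum does not measure macrophage RNA. Csf1r, Cd14, Itgam and Cd68 each lay above OT-1 alone without overlap with macrophages and tumor, but overlapped it with macrophages. The summed level of 23 tumor or mesenchymal markers was 4613 to 4840 with macrophages and tumor, 3897 to 5583 with macrophages (3897 to 3913 without sample 2) and 3207 to 3402 in OT-1 alone, with Nt5e (1.83 and 1.41) and Pecam1 (1.21 and 0.80) higher past the threshold in both co-cultures. That sum rested mostly on Bst2, Igf2r, Pecam1 and Nt5e, with means of 10.31, 10.15, 10.06 and 9.22 with macrophages and tumor. In OT-1 alone, without any tumor cells, these were at 10.16, 9.78, 8.85 and 7.39. The sum therefore does not measure tumor RNA. Col1a1 (3.82 with macrophages and tumor, 3.04 in OT-1 alone) and Col3a1 (4.70 and 3.38) had low levels and did not pass. The part of macrophages or tumor cells in the results on the 8 genes was not tested.

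Socs1 and Il2ra were lower in both co-cultures, while Jak3 was higher in both and Il21r was higher with macrophages and tumor. Set against OT-1 alone, 2 of the 8 genes rose in the macrophages and tumor group, 2 fell and 4 did not pass the test (limma, Benjamini-Yekutieli over 750 genes, adjusted p under 0.05), where 18.4% of all genes passed it, 14.5% higher and 3.87% lower. In the macrophage group 1 rose, 2 fell and 5 did not pass, where 18.4% of all genes passed, 11.9% higher and 6.53% lower. Between the co-cultures none of the 8 passed by limma, where 3.2% of all genes did, 2.67% higher and 0.533% lower with tumor, although 4 had an unadjusted p under 0.05, as 20.9% of all genes had, and Benjamini-Hochberg adjustment called 1, where it called 8.27% of all genes. Both comparisons against OT-1 alone use the same 3 samples of OT-1 alone. In bulk samples such as these, fewer cells with a transcript and less of it per cell cannot be told apart.

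**Figure D1:**
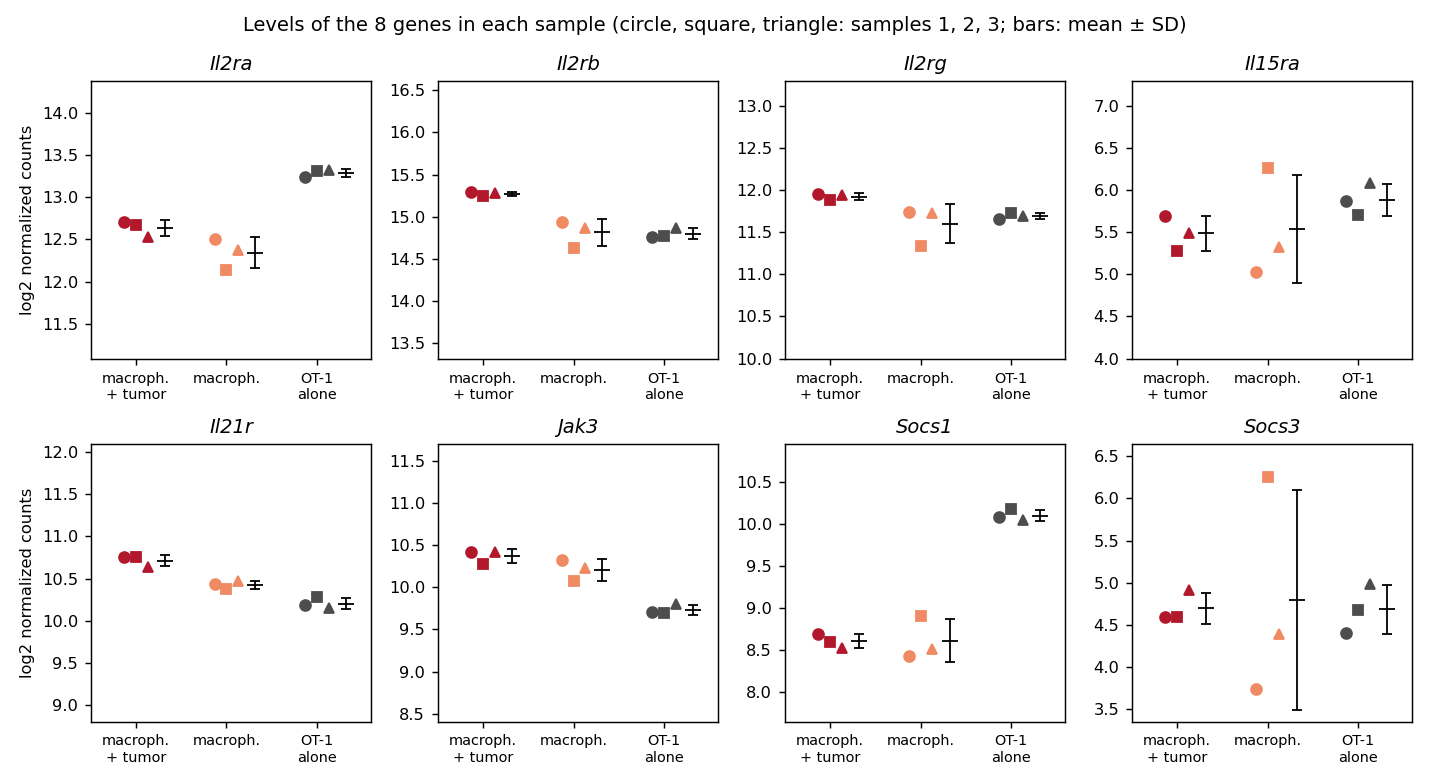
Log2 normalized counts of the 8 genes in each sample, with 1 panel per gene and its own range on the y axis. Points are samples, and the bars beside them show the mean and SD of 3 samples. Socs1 and Il2ra are lower in all 6 co-culture samples than in the 3 samples of OT-1 alone, and macrophage sample 2 is far from its group for Il15ra and Socs3.

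Socs1 encodes a protein that binds JAK kinases and shuts off signals of IL-2, IL-15 and the interferons. Its levels with macrophages and tumor were 8.69, 8.60 and 8.53, those with macrophages 8.43, 8.90 and 8.51, and those in OT-1 alone 10.08, 10.17 and 10.04. The 6 co-culture samples lay below all samples of OT-1 alone, with a gap wider than the spread of any group. The mean was 8.61 ± 0.08 with macrophages and tumor, 8.61 ± 0.25 with macrophages and 10.10 ± 0.07 in OT-1 alone (SD, n = 3 each). Socs1 fell by 1.49 (SE 0.132, 95% interval -1.80 to -1.18, adjusted p 9.77e-04 by limma) with macrophages and tumor, to 0.356 of the level in OT-1 alone. With macrophages it fell by 1.48 (95% interval -1.79 to -1.17, adjusted p 0.00128 by limma), to 0.358 of that level. Macrophage sample 2 had 75 raw counts of Socs1, against 271 to 1616 in the others, and without it the fall with macrophages was 1.63. Between the co-cultures the difference was -0.01 (95% interval -0.32 to 0.30, adjusted p 1 by limma), and the groups overlapped. The exact permutation test gave 0.1, the smallest p that 3 samples against 3 allow, for each comparison with OT-1 alone.

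The Socs1 promoter is shown because this gene had the largest difference of the 8, and because its motif stands just before the start of the gene. The sequence holds 250 bases before and 50 after the start (RefSeq, GRCm38.p6, chr16:10785487-10785786, minus strand), with capitals on 2 overlapping matches to the interferon response motif GAAANNGAAA, GAAAGAGAAA and GAAACCGAAA, which begin 83 and 77 bases before the start.
Socs1: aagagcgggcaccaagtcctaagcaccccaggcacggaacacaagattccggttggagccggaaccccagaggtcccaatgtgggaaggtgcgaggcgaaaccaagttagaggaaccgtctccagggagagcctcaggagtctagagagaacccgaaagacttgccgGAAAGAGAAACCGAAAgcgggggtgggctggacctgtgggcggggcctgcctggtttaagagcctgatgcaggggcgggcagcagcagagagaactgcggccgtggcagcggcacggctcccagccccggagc
On either strand this motif is found in 3.44% of 32851 mouse promoters of the same length, and among the 7 of the 8 genes whose promoter was in the table (all but Il2rb) in that of Socs1 alone. It was added to the search after the sequences had been read, and a match to letters is not a measured binding site.

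Il2ra encodes CD25, the chain that turns the intermediate-affinity IL-2 receptor into the high-affinity form on activated T cells. Il2ra was at 12.71, 12.67 and 12.53 with macrophages and tumor, at 12.50, 12.14 and 12.38 with macrophages, and at 13.24, 13.31 and 13.32 in OT-1 alone. OT-1 alone was higher than every co-culture sample, and the co-culture with tumor lay above the one without. The mean was 12.64 ± 0.09 with macrophages and tumor, 12.34 ± 0.18 with macrophages and 13.29 ± 0.04 in OT-1 alone. Il2ra fell by 0.65 (SE 0.109, 95% interval -0.91 to -0.40, adjusted p 0.0227 by limma) with macrophages and tumor, to 0.636 of the level in OT-1 alone. With macrophages it fell by 0.95 (95% interval -1.21 to -0.69, adjusted p 0.00401 by limma), to 0.518 of that level. Between the co-cultures it differed by 0.30 (95% interval 0.04 to 0.55), which did not pass (adjusted p 1 by limma). The call with macrophages and tumor was lost when any 1 of its own samples or of OT-1 alone was left out (adjusted p 0.0779 to 0.128 by limma) and without macrophage sample 3 (0.0557), always with Il2ra lower.

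The Il2ra promoter is shown beside it as that of the other gene that fell in both co-cultures (RefSeq, GRCm38.p6, chr2:11642542-11642841, plus strand). The capitals mark 2 overlapping matches to the NF-kB motif, which begin 201 and 200 bases before the start of the gene.
Il2ra: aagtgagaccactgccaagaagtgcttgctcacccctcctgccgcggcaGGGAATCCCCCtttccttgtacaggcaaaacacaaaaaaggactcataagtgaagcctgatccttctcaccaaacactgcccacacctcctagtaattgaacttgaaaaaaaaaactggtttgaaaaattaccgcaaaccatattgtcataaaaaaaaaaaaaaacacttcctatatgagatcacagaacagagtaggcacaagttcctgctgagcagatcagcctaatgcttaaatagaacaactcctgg
The NF-kB motif, also added after the sequences had been read, is in 8.46% of the 32851 promoters, and among the 7 genes searched in that of Il2ra alone. The STAT motif TTCNNNGAA, the form bound by STAT5, is not in this window in Il2ra or Socs1.

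Il2rb and Il2rg, the signaling chains of the IL-2 receptor, did not pass in any of the comparisons. Il2rb was at 15.29, 15.24 and 15.28 with macrophages and tumor, at 14.94, 14.63 and 14.87 with macrophages, and at 14.76, 14.77 and 14.87 in OT-1 alone. Every sample with tumor lay above all others, whereas macrophages and OT-1 alone overlapped. Its difference from OT-1 alone was 0.47 (SE 0.0964, 95% interval 0.24 to 0.70, adjusted p 0.0622 by limma) with macrophages and tumor, and it was 0.01 (95% interval -0.21 to 0.24, adjusted p 1) with macrophages. Between the co-cultures it was 0.46 (95% interval 0.23 to 0.68, adjusted p 0.218 by limma). The first of these passed under 7 of 20 other settings, among them leaving out macrophage sample 2 (adjusted p 0.00575 by limma), which enters that comparison only through the shared spread. Its sign turned when samples were centered on the median of all genes (-0.04) or quantile normalized (-0.015).

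Il2rg, the chain common to the whole family, was at 11.95, 11.88 and 11.94 with macrophages and tumor, at 11.74, 11.34 and 11.73 with macrophages, and at 11.66, 11.73 and 11.69 in OT-1 alone. The samples with tumor were again above all others, but the differences from OT-1 alone were 0.23 (95% interval -0.05 to 0.51) with macrophages and tumor and -0.09 (95% interval -0.37 to 0.19) with macrophages, with an adjusted p of 1 by limma for both. Between the co-cultures Il2rg differed by 0.32 (95% interval 0.04 to 0.60, adjusted p 1 by limma). The lowest value of Il2rg was that of macrophage sample 2, and without it the difference between macrophages and OT-1 alone was 0.04.

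Il21r encodes the private chain of the IL-21 receptor. Its levels were 10.75, 10.75 and 10.64 with macrophages and tumor, 10.43, 10.37 and 10.47 with macrophages, and 10.18, 10.28 and 10.15 in OT-1 alone. The 3 groups did not overlap, with macrophages and tumor highest and OT-1 alone lowest. Il21r rose by 0.51 (SE 0.075, 95% interval 0.33 to 0.69, adjusted p 0.0117 by limma) with macrophages and tumor, to 1.42 times the level in OT-1 alone. The difference was 0.22 (95% interval 0.04 to 0.40, adjusted p 0.472 by limma) with macrophages, and 0.29 (95% interval 0.11 to 0.47, adjusted p 0.466 by limma) between the co-cultures, neither of which passed. The rise did not pass when samples were centered on genes above a level of 8 (0.12) or on all genes (0.00), or after quantile normalization. The call was also lost with a block for the sample number. So it was after leaving out macrophages and tumor sample 1 or 2 or OT-1 alone sample 1 or 3 (adjusted p 0.0752 to 0.0821 by limma).

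Jak3, the kinase that only the common gamma chain binds, rose in both co-cultures. It was at 10.42, 10.28 and 10.42 with macrophages and tumor, at 10.32, 10.07 and 10.23 with macrophages, and at 9.71, 9.69 and 9.80 in OT-1 alone. All co-culture samples lay above OT-1 alone, and the co-cultures overlapped each other. Jak3 rose by 0.64 (SE 0.0916, 95% interval 0.42 to 0.86, adjusted p 0.0103 by limma) with macrophages and tumor, to 1.56 times the level in OT-1 alone. With macrophages it rose by 0.47 (95% interval 0.26 to 0.69, adjusted p 0.0488 by limma), to 1.39 times. Between the co-cultures the difference was 0.17 (95% interval -0.05 to 0.38, adjusted p 1 by limma). The call with macrophages was lost in 8 of 9 fits that left out 1 sample, holding only without macrophage sample 2 (0.54, adjusted p 0.0140 by limma), and the call with tumor without macrophages and tumor sample 1 or 3 or OT-1 alone sample 1 or 2 (adjusted p 0.0548 to 0.0690 by limma). Centered on the median of all genes, the difference with macrophages was -0.22.

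Il15ra and Socs3 were counted near the low end of the panel, with 12 to 86 and 12 to 36 raw counts in any sample. Il15ra, the chain that presents IL-15, was at 5.69, 5.28 and 5.49 with macrophages and tumor, at 5.03, 6.26 and 5.32 with macrophages, and at 5.87, 5.70 and 6.08 in OT-1 alone. The samples with tumor lay just below all of OT-1 alone, and macrophage sample 2, with 12 raw counts of Il15ra, lay above every other sample. The differences of -0.40 (95% interval -1.12 to 0.33) with macrophages and tumor and -0.35 with macrophages did not pass (adjusted p 1 by limma for both). Without macrophage sample 2 the difference between macrophages and OT-1 alone was -0.71 (adjusted p 0.127 by limma).

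Socs3 encodes the suppressor best known for acting on receptors of the IL-6 family. It was at 4.59, 4.59 and 4.91 with macrophages and tumor, at 3.74, 6.26 and 4.39 with macrophages, and at 4.40, 4.68 and 4.98 in OT-1 alone. All groups overlapped, and the value of 6.26 in macrophage sample 2 stood for 12 raw counts. The differences from OT-1 alone were 0.01 (95% interval -1.38 to 1.40) with macrophages and tumor and 0.11 (95% interval -1.28 to 1.50) with macrophages, with an adjusted p of 1 by limma for both. These intervals reach past 1 in either direction, and the call depended on the scaling, since Socs3 with macrophages was at -0.90 from OT-1 alone after quantile normalization (adjusted p 0.0426 by limma).

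The promoter of Socs3 was the only one among the 7 genes searched with a match to the STAT motif TTCNNNGAA, and is shown to set it beside that of Socs1 (RefSeq, GRCm38.p6, chr11:117969317-117969616, minus strand). The capitals mark the match, TTCTTAGAA, which begins 154 bases before the start used in the promoter table. That start lies 970 bases inside the gene as annotated in RefSeq, unlike those of Socs1 and Il2ra, which coincide with the end of the gene.
Socs3: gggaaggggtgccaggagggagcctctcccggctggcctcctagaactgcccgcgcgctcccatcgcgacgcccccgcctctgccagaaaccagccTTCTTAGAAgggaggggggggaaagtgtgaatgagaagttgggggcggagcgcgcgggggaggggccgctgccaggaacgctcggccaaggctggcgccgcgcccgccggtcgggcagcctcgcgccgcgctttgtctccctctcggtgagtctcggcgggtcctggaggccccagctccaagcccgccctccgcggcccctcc
This motif is in 8.30% of the 32851 promoters. The longer form TTCNNNNGAA is in 6.95% of them and in none of those of the 7 genes.

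The macrophages and tumor group did not overlap OT-1 alone for 7 of the 8 genes, 4 higher and 3 lower. Of all genes 57.1% did not overlap, 43.5% higher and 13.6% lower. Among the 7, Il2rb, Il2rg and Il15ra did not pass by limma, and Il15ra was apart only by 5.69 against 5.70. The macrophage group did not overlap OT-1 alone for 4, 2 higher and 2 lower, where 53.1% of all genes did not, 38% higher and 15.1% lower. The co-cultures did not overlap each other for 4 (Il2ra, Il2rb, Il2rg and Il21r, all higher with tumor), where 24.9% of all genes did not, 20.3% higher and 4.67% lower. The median difference of the 8 genes from OT-1 alone was 0.12 with macrophages and tumor and -0.04 with macrophages, beside 0.40 and 0.66 over all genes. Over the 309 genes above a level of 8, which depend less on the shallow sample, the medians were 0.21 and 0.01. Between the co-cultures the 8 genes had a median of 0.23, beside -0.12 over all genes and 0.17 over those above 8.

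**Figure D2:**
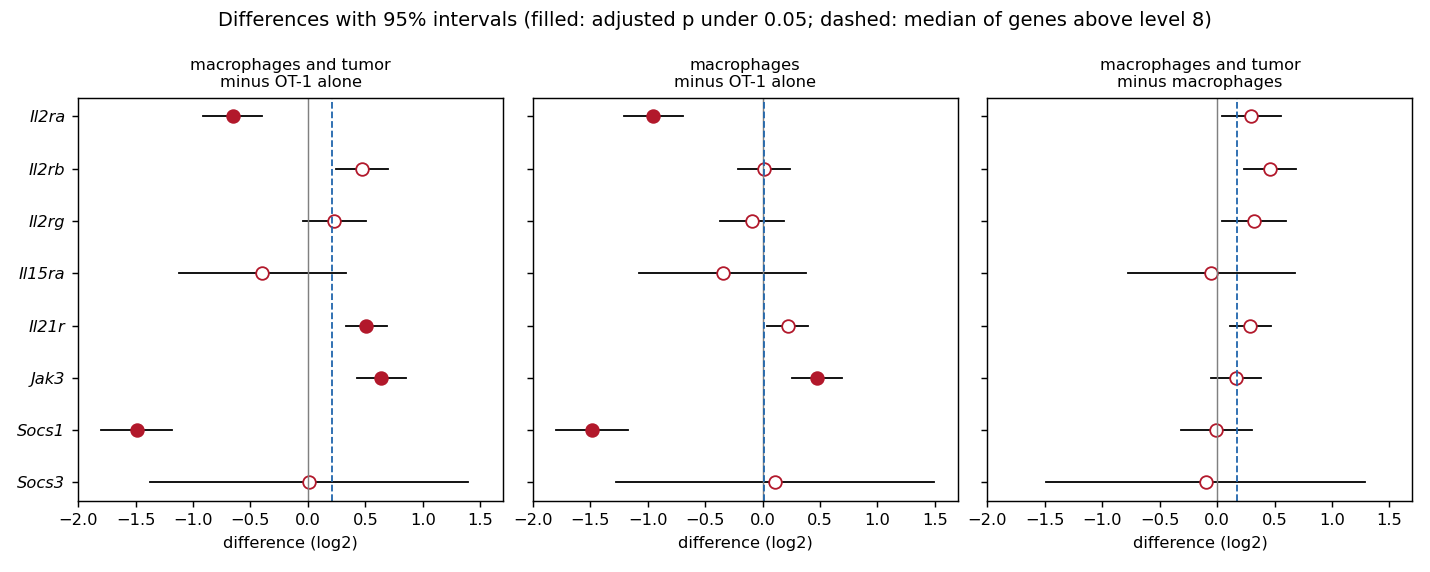
Differences in log2 normalized counts for the 8 genes in the 3 comparisons, with 95% intervals from limma. Filled points passed at an adjusted p under 0.05, and the dashed line is the median difference of the 309 genes above a level of 8 (0.21, 0.01 and 0.17 from left to right). Socs1 and Il2ra lie left of 0 in both comparisons against OT-1 alone, and no point is filled between the co-cultures.

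These medians matter for the smaller changes, because the whole table moved with the scaling of the samples. The median of the genes above a level of 8 was 10.28 to 10.33 with macrophages and tumor, 9.98 to 10.06 with macrophages and 9.88 to 9.93 in OT-1 alone. After each sample was centered on that median, Socs1 differed from OT-1 alone by -1.88 with macrophages and tumor and by -1.60 with macrophages, and Il2ra by -1.05 and -1.07. On the same scale Jak3 differed by 0.25 and 0.35, Il21r by 0.12 and 0.10, Il2rb by 0.08 and -0.11 and Il2rg by -0.16 and -0.21, and none of these passed. Socs1 passed against OT-1 alone in both comparisons under all 20 other settings tried, and Il2ra with macrophages under 19 of them. The calls of Jak3 and Il21r with macrophages and tumor, and the signs of Il2rb and Il2rg there, thus changed with the scaling.

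**Figure D3:**
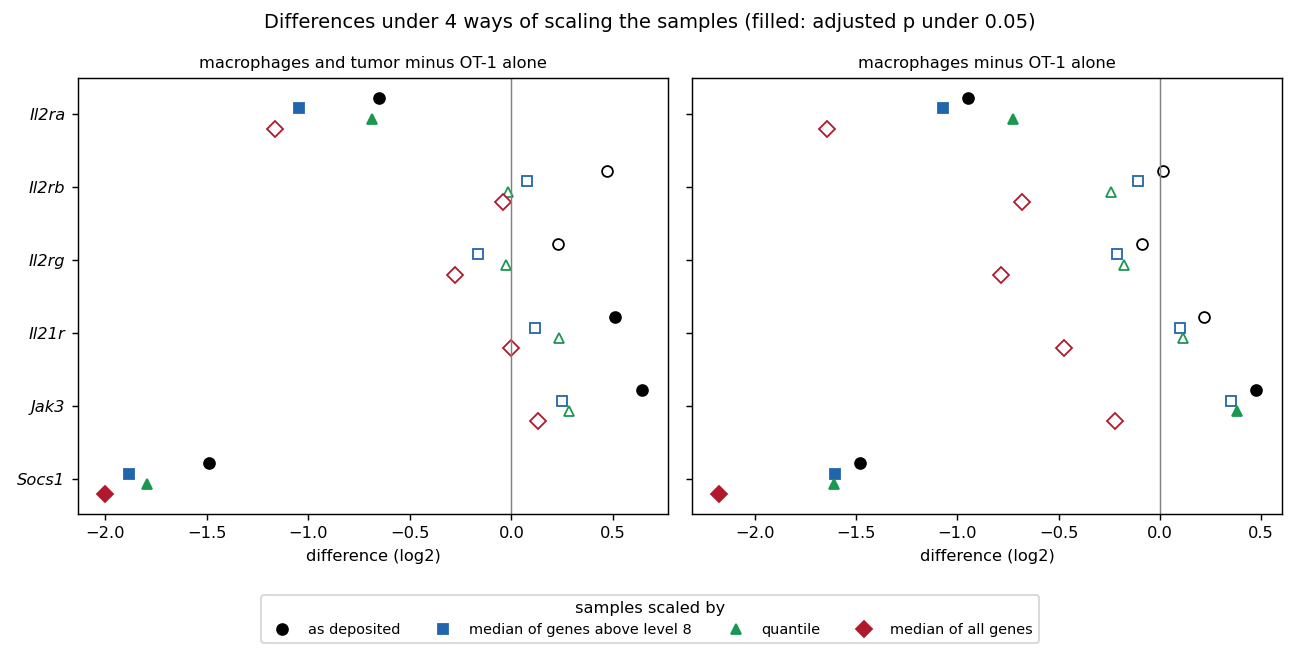
Differences from OT-1 alone for the 6 genes above a level of 8 (x axis, log2) as deposited and under 3 other scalings of the samples. Filled points passed at an adjusted p under 0.05. Socs1 is left of 0 and filled under every scaling shown, Il2ra is left of 0 under each, and Il2rb and Il2rg with macrophages and tumor lie on both sides of 0.

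A ratio of a pair of genes within a sample is not moved by any scaling of that sample. Probes differ in efficiency, so only the change of a ratio between samples is described. The ratios were chosen after the levels had been seen. Of the 15 pairs among the 6 genes above a level of 8, the ratios of the macrophages and tumor group did not overlap those of OT-1 alone for 13, where 81.9% of all 47586 pairs of the 309 genes did not, and those of the macrophage group for 12 (75.1% of all pairs). The co-cultures did not overlap each other for 6 (46.6% of all pairs). Counts of this size are close to the share in all pairs, and the smallest exact p for any pair is 0.1.

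The log2 ratio of Il2ra over Il2rb, the alpha and the beta chain of the IL-2 receptor, was -2.58, -2.57 and -2.75 with macrophages and tumor, -2.44, -2.49 and -2.49 with macrophages, and -1.52, -1.46 and -1.55 in OT-1 alone. It was lower by 1.12 and 0.96 in the co-cultures, and the 3 groups did not overlap. Jak3 over Socs1 was 1.73, 1.68 and 1.89 with macrophages and tumor, 1.89, 1.17 and 1.72 with macrophages, and -0.37, -0.48 and -0.24 in OT-1 alone. This ratio was higher by 2.13 with macrophages and tumor and by 1.96 with macrophages, the largest change of the 15 pairs in each of these comparisons. Il2rb over Jak3 was 4.87, 4.96 and 4.86 with macrophages and tumor, 4.62, 4.56 and 4.64 with macrophages, and 5.05, 5.08 and 5.07 in OT-1 alone, so that it separated the co-cultures as well. It was lower than in OT-1 alone by 0.17 with macrophages and tumor and by 0.46 with macrophages, a difference of 0.29 between the co-cultures.

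**Figure D4:**
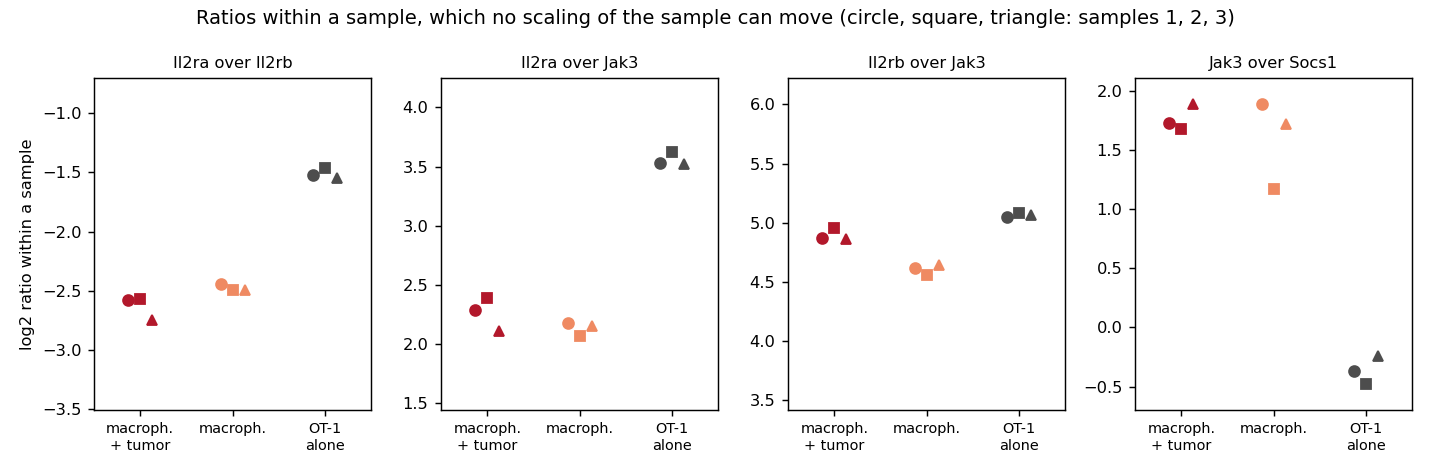
Log2 ratios within each sample for 4 pairs of genes, with 1 point per sample. Il2ra over Il2rb is between -2.75 and -2.44 in the co-cultures and between -1.55 and -1.46 in OT-1 alone, and Jak3 over Socs1 is above 1 in every co-culture sample and below 0 in OT-1 alone.

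Of the receptor chains outside the 8 that pair with the common gamma chain, Il4ra and Il7r were measured. Il4ra, the alpha chain of the IL-4 receptor, was at 9.16, 9.15 and 9.22 with macrophages and tumor, at 9.12, 9.12 and 9.05 with macrophages, and at 9.65, 9.82 and 9.85 in OT-1 alone. Like Il2ra, it was lower in every co-culture sample, with a difference of -0.60 with macrophages and tumor (adjusted p 0.00719 by limma) and -0.68 with macrophages (adjusted p 0.00443 by limma). Il7r, the alpha chain of the IL-7 receptor, which T cells lower upon IL-2, was at 10.64, 10.68 and 10.76 with macrophages and tumor, at 9.71, 9.80 and 9.69 with macrophages, and at 10.82, 10.73 and 10.82 in OT-1 alone. Only the samples with macrophages and no tumor stood apart, with a difference of -1.06 from OT-1 alone (adjusted p 3.68e-04 by limma). Il7r was 0.96 higher with tumor than without (adjusted p 0.00274 by limma). Of the 7 receptor chains measured, 2 fell with macrophages and tumor (Il2ra and Il4ra), 1 rose (Il21r) and 4 did not pass. Of all genes 18.4% passed in that comparison, 14.5% higher and 3.87% lower.

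The cytokines themselves were barely counted in the sorted T cells. Il2, Il4, Il7, Il9, Il15 and Il21 had between 5 (Il7) and 45 (Il21) raw counts in any sample, and none passed in any comparison by limma. Il2 was at 4.16, 5.24 and 4.62 with macrophages and tumor, at 3.99, 6.76 and 4.60 with macrophages, and at 3.53, 3.90 and 4.08 in OT-1 alone. The value of 6.76 in macrophage sample 2 stood for 17 raw counts of Il2. Transcript of a cytokine supplied by the other cells or the medium would not be seen in these samples.

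Of 10 JAK and STAT genes listed beside Jak3, 9 were measured, and 3 of them rose with macrophages and tumor. In that comparison 14.5% of all genes rose, and the median over genes above a level of 8 was 0.21. The 3 were Stat3 (1.46, adjusted p 4.45e-04 by limma), which carries IL-21 and IL-6 signals, Stat4 (0.97, adjusted p 5.90e-04), which carries IL-12 signals, and Stat6 (0.43, adjusted p 0.0185), which carries IL-4 signals. With macrophages Stat4 rose (0.53, adjusted p 0.0136 by limma) and the other 8 did not pass, where 11.9% of all genes rose. Jak1 and Stat5b, the partners of Jak3 behind IL-2, differed from OT-1 alone by 0.13 and 0.31 with macrophages and tumor and by -0.10 and -0.02 with macrophages, and did not pass. Of 17 other genes known to restrain cytokine receptors, Ptprc and Inpp5d were measured, and neither passed.

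Among genes known to be raised by IL-2 or STAT5 in T cells, a list that holds Il2ra, Socs1 and Socs3, 20 of 26 were measured. In the macrophages and tumor group 4 rose, 6 fell and 10 did not pass, with a median of -0.31 beside 0.40 over all genes. Of all genes 14.5% rose and 3.87% fell there. Without Il2ra, Socs1 and Socs3, 4 of the other 17 rose and 4 fell. Socs1 and Il2ra fell together with Gzma (-1.58), a granzyme, Lta (-1.66), a TNF family cytokine, Ccnd3 (-0.86), a D-type cyclin, and Eomes (-0.60), a transcription factor. Prf1 (1.30), which encodes perforin, Il12rb2 (0.74), a chain of the IL-12 receptor, and the costimulatory receptors Tnfrsf4 (1.74) and Tnfrsf18 (1.16) rose. With macrophages 3 rose, 9 fell and 8 did not pass, with a median of -0.57, beside 0.66 over all genes. Of all genes 11.9% rose and 6.53% fell, and of the 17 without the members 3 rose and 7 fell. Gzmb (-1.32), Bcl2 (-0.85) and Cdkn1a (-1.89) were past the threshold here. Of genes known to be lowered by IL-2, 5 of 7 were measured, and their counts stand beside the same shares of all genes. With macrophages and tumor 3 of them rose, among them Ccr7 (3.71) and Tcf7 (0.96), genes of naive and memory cells, and with macrophages 2 rose, Ccr7 (2.05) among them, while Il7r fell. The lists were written with earlier results known, and membership in them was not tested.

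For each of the 8 genes genes most alike over the 9 samples were found by Pearson correlation, as a description over points that share 3 groups and their scaling. Socs1 was most like Cd244 (r = 0.994), Tnfrsf8 (0.989) and Ccr2 (0.984), and Il2ra was like Il12rb1 (0.978) and Lgals3 (0.975). Jak3 was like Prkcd (0.992) and Lag3 (0.990), and Il21r most like Ripk2 (0.985), Tnfsf4 (0.971) and Itgb3 (0.970). Il2rb was most like Hif1a (0.985), Tollip (0.983) and Tgfbr2 (0.981), and Il2rg most like Nfatc3 (0.979), Nfkb1 (0.975) and Tap1 (0.970). The genes most like Socs3, Il5 (0.984), Il22ra2 (0.977) and Oas2 (0.965), share with it the high value of macrophage sample 2, and those of Il15ra were Cd48 (0.916), Osm (0.901) and Cdh1 (0.899). None of the 8 genes was among the 3 most like another of them.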

How the data were processed

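Per the methods, the authors sorted CD8+ cells, counted their RNA with the PanCancer Immune Profiling Panel on an nCounter MAX, and used nSolver for normalization and quality control. The authors deposited log2 normalized counts with 2 decimals, which were used as given for 750 genes and 9 samples. Raw counts per sample were recovered from these values as whole multiples of 1 step, and 100% of values up to 20 raw counts were whole within the rounding of 0.005. Reference genes were not analysed here, and the normalization was kept as it was.

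The log2 values of all 9 samples were fitted with 1 mean per group (lmFit and eBayes of limma 3.58.1, R 4.3.3, two-sided). P-values were adjusted by Benjamini-Yekutieli over all 750 genes, the adjustment the methods name, a threshold of 0.05 and all genes kept. The fits were tested on simulated data. Single genes were also compared by exact permutation tests of 3 samples against 3, two-sided. Chi-square per degree of freedom between replicates was 25.6 and 18.1 in the pairs with macrophage sample 2, and from 1.94 to 6.65 in the others. All lay above counting noise, and each replicate counted as 1 sample.

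The members and lists were chosen with earlier results of these data known. All 8 members are named, as are all measured cytokines and receptor chains of the family, genes of the other lists past the threshold with examples of others, and the 3 genes most like each member, apart from a few genes that are not reported here. Of the 750 symbols, 734 are current in RefSeq (GRCm38.p6), 8 are synonyms and 8 were not matched. Promoters were those of RefSeq and were searched on both strands. Alternatives were other scalings, floors and filters on low counts, other adjustments and fits, a replicate block and leaving out each sample.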

Additional observations from a re-analysis of the deposited data

How the results depend on the processing

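Under 20 other settings, Socs1 kept its direction and its call in both comparisons against OT-1 alone, and Il2ra with macrophages did so in 19, losing the call (adjusted p 0.0605 by limma) when samples were centered on the median of all genes. Il2ra with macrophages and tumor kept the call in 11 settings, Jak3 in 13 and Il21r in 12, against OT-1 alone. Raw counts, and so precision, were lowest for Il15ra and Socs3.

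In the macrophages and tumor group 138 genes passed against OT-1 alone (109 higher, 29 lower). The number was 28 centered on the median of all genes (13 higher, 15 lower), 280 with array weights, 59 higher and 100 lower centered on genes above a level of 8, and 72 higher and 68 lower after quantile normalization. With macrophages against OT-1 alone 138 passed (89 higher, 49 lower). The number was 37 centered on all genes (7 higher, 30 lower), 226 by Benjamini-Hochberg, 301 with array weights, 73 from the 2 groups alone, 71 higher and 65 lower centered on genes above 8, and 68 higher and 68 lower by quantiles. Between the co-cultures 24 passed (20 higher, 4 lower), and 157 had an unadjusted p under 0.05. The number was 0 centered on all genes, 42 with a floor of 100 normalized counts, 62 by Benjamini-Hochberg, 66 with a trend, 131 with array weights, 0 from the 2 groups alone, 12 higher and 11 lower centered on genes above 8, and 16 higher and 9 lower by quantiles. Leaving out 1 sample gave 96 to 223, 83 to 170 and 11 to 34 genes in these comparisons.

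Of the 8 genes, 4 passed in the macrophages and tumor group against OT-1 alone, 1 centered on all genes, 2 centered on genes above 8, 2 by quantiles, 6 with array weights, 5 each by Benjamini-Hochberg, with a trend, from the 2 groups alone, with a floor of 100 and with low genes left out, and 1 to 5 with 1 sample left out. With macrophages 3 passed, 1 centered on all genes, 2 centered on genes above 8, 2 from the 2 groups alone, 4 by quantiles (with Socs3 as the added gene), 4 with array weights (with Il21r) and 2 to 3 with 1 sample left out. Between the co-cultures 0 passed, 1 by Benjamini-Hochberg (Il2rb), 2 with a trend (Il2rb, Il21r), 3 with array weights (Il2ra, Il2rb, Il21r) and 0 to 0 with 1 sample left out.

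Some directions turned, among them that of Jak3 with macrophages, which had passed as deposited. In the macrophages and tumor group against OT-1 alone, Il2rb was -0.04 centered on all genes and -0.015 by quantiles, Il2rg was -0.28, -0.16 (centered on genes above 8) and -0.025, and Socs3 was -0.50, -0.38, -0.54 and, with array weights, -0.022 (-0.13 to 0.16 with 1 sample left out). With macrophages against OT-1 alone, centered on all genes, Il2rb was -0.68, Il21r -0.47, Jak3 -0.22 and Socs3 -0.59. Centered on genes above 8, Il2rb was -0.11 and Socs3 -0.01, by quantiles Il2rb was -0.24 and Socs3 -0.90 (past the threshold, adjusted p 0.0426 by limma), and with array weights Il2rg was 0.023 and Socs3 -0.28. With 1 sample left out, Il2rb ran from -0.05 to 0.11, Il2rg from -0.16 to 0.042 and Socs3 from -0.62 to 0.64. Between the co-cultures Il15ra was 0.14 centered on all genes, 0.33 by quantiles and 0.23 with array weights (-0.30 to 0.31 with 1 sample left out), and Socs3 0.085, 0.36 and 0.26 (-0.63 to 0.63). Socs1 was 0.18 centered on all genes and 0.13 with array weights (-0.10 to 0.14), and Jak3 was -0.11 centered on genes above 8 and -0.10 by quantiles. The cause was not tested. The estimates of array weights stopped before full convergence.

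Whether samples of the same number were paired is not stated in the sources used here. Correlations between groups of 3 samples, whose deviations from their mean are tied to each other, cannot settle it. Deviations of same-numbered samples correlated from -0.37 to 0.46, with 5 of 9 pairs over 0.1, and those of the other 18 pairs from -0.46 to 0.46. With the replicate block 111, 96 and 10 genes passed in the 3 comparisons, and 2, 2 and 0 of the 8 genes. Il2ra (adjusted p 0.0937 by limma) and Il21r (0.0711) with macrophages and tumor and Jak3 (0.0841) with macrophages did not pass with the block.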
